A study of Mus musculus with 14 samples.

Results

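The genes described here encode the nuclear part of the mitochondrial respiratory chain, the 5 protein complexes of the inner membrane that carry out oxidative phosphorylation. They were taken by symbol alone, with no measured value in the rule. The rule keeps the genes whose symbols start with Ndufa, Ndufb, Ndufc, Ndufs, Ndufv, Uqcr, Cox4 to Cox8 or Atp5, together with Sdha, Sdhb, Sdhc and Sdhd, and leaves out 9 entries named as pseudogenes. It gave 98 of the 54446 gene identifiers in the files: 47 of complex I, 4 of complex II, 8 of complex III, 21 of complex IV and 18 of complex V. Of these, 25 entries encode catalytic or core subunits, 51 encode supernumerary subunits, 8 encode isoforms restricted to some tissues and 4 are further gene copies. The symbols also bring in 9 assembly factors and Atp5s, a factor associated with ATP synthase that is not a subunit of it.

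Complexes I and II take electrons from NADH and succinate, complex III passes them to cytochrome c, complex IV hands them to oxygen, and complex V, the ATP synthase, uses the resulting proton gradient to make ATP. A small set of subunits is made from mitochondrial DNA and the rest, complex II in full, from nuclear genes, so the complexes depend on both genomes. The kinase mTOR is known to favour the transcription and translation of nuclear genes for mitochondrial proteins, and its inhibition puts mouse embryonic stem (ES) cells into a dormant state that resembles embryonic diapause, the natural pause of the blastocyst.

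RNA was sequenced from E14 mouse ES cells kept without feeder cells in serum and LIF. All groups share this line and this medium. Wild-type (WT) cells were left untreated (0 h) or treated with the mTOR inhibitor Ink128 (mTORi) for 24, 72 or 144 h. Tet1/2 double-knockout (DKO) cells, a sorted clone of the same E14 line in which Cas9 was targeted to the genes for the DNA demethylating enzymes Tet1 and Tet2, were examined at 0, 24 and 72 h. Each of the 7 groups held 2 replicates, 14 libraries in all, and the DKO groups describe 1 clone.

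Values are given on a pair of scales. The deposited TPM (transcript abundance per unit of length, scaled to the same total in every library) are called plain TPM and show a gene relative to all other transcripts. Spike-in normalized TPM are these values rescaled in each library with synthetic ERCC RNAs that the authors added to the RNA of a fixed number of cells, and follow the amount of RNA per cell. The average spike-in normalized level of a gene stood at 38.8 TPM in both WT 0 h libraries, 26.3 to 34.0 at 24 and 72 h and 18.4 to 19.7 at 144 h, and 43.6 to 51.7, 24.9 to 41.1 and 31.7 to 46.5 in DKO at 0, 24 and 72 h. Fewer cells of a type and less RNA per cell cannot be told apart in bulk libraries. TPM carry no read counts, so the depth is unknown and no counting error can be given. Replicates are libraries that the labels call separate, and p-values measure the spread between these libraries. Tet2 lay at 95.96 to 143.3 TPM in WT and 15.89 to 22.17 TPM in DKO, whereas the Tet1 ranges overlapped (190.9 to 349.4 and 146.9 to 248.2 TPM). The gene-level Tet1 value thus does not check the deletion, and DKO names the libraries so labelled. The study's methods report that the knockouts were checked by PCR and by western blots for both proteins. The summed TPM of 6 ES cell markers was 2781 to 3493 in every library. The sum over 6 primitive endoderm markers was 12.57 to 182.1 TPM, highest in WT at 24 h, and that over 5 trophectoderm markers 11.1 to 73.86 TPM. The sums were 28.05 to 93.83 TPM for 4 neural, 1.278 to 17.71 TPM for 5 fibroblast, 1.281 to 3.194 TPM for 5 muscle and 0 to 0.2362 TPM for 4 sperm cell markers. Trophectoderm sums came mostly from Krt18 (up to 65.43 TPM), as Cdx2, Elf5 and Krt7 reached at most 1.181 TPM and Gata3 7.821 TPM. Neural sums came mostly from Tubb3 (up to 76.44 TPM, the others at most 9.73 TPM). Fibroblast sums came mostly from Thy1 (up to 17.06 TPM, the others at most 0.5119 TPM), and each muscle marker reached at most 1.5 TPM. Such sums largely follow single genes or genes near 0 TPM, and the part of these other cell types in the results was not tested.

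The 98 genes held 1.44 and 1.46% of all TPM in the WT 0 h libraries, and the share was lower under mTORi. It was 1.12 and 1.19% at 24 h, 1.09 and 1.25% at 72 h, then 1.2 and 1.26% at 144 h, so the mean share was 20.4, 19.1 and 15.3% lower than at 0 h. No WT library under mTORi reached the WT 0 h libraries. With 2 libraries against 2, an exact two-sided permutation test cannot give a p below 0.333, so the shares are described and not tested. The summed level in spike-in normalized TPM was 38.3, 39.6 and 58.4% lower at the 3 time points.

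The complexes did not shift to the same degree. Complex III lost the largest part of its share of TPM at each WT time point (28.6, 30.5 and 25.8% lower at 24, 72 and 144 h), followed by complex V (26.1, 22.8 and 17.5%). Complex IV was lower by 16.8, 16.3 and 11.9%. The smallest differences were those of complex II (14.6, 12.7 and 11.3%) and complex I (12.5, 11.99 and 11.3%). In each of the 5 complexes every WT mTORi library lay below both 0 h libraries.

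**Figure D1:**
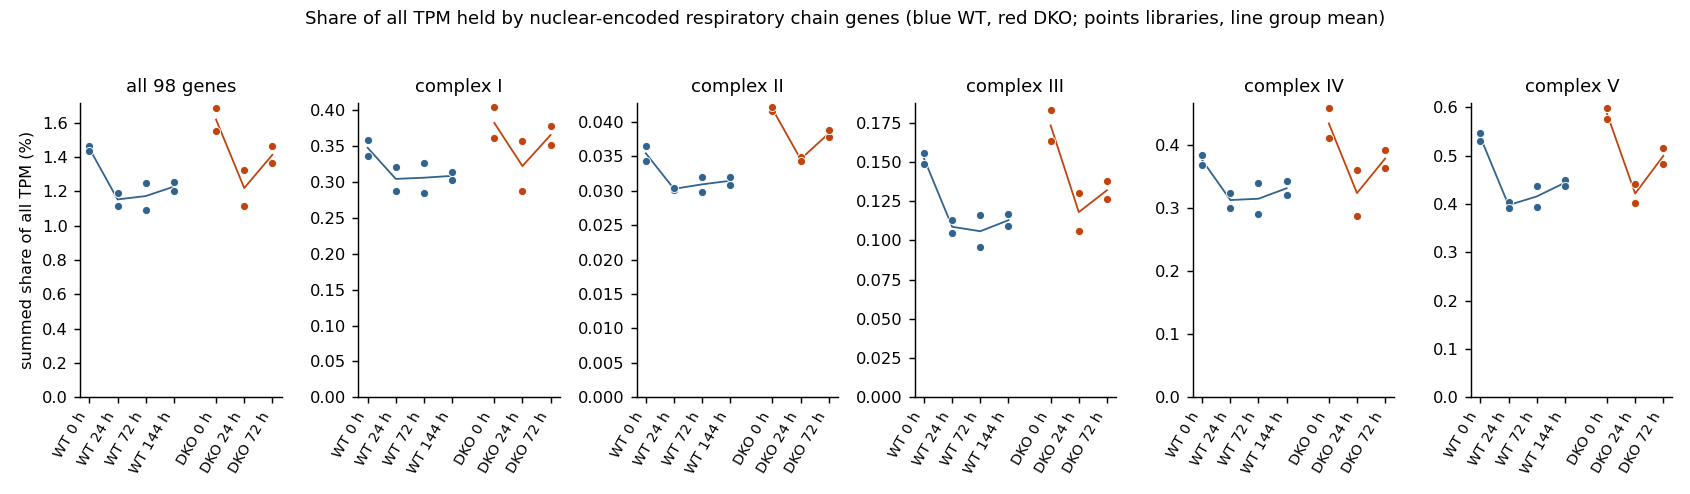
Share of all TPM (%, vertical axes from 0) held by the 98 genes and by each complex, with a point for each library and a line through the mean of the 2 replicates of each group (WT blue, DKO red). All 98 genes together went from 1.45% in WT at 0 h to 1.15% at 24 h, and from 1.62 to 1.22% in DKO, with complexes III and V lowest relative to their own 0 h level.

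Single genes were tested by limma after a log2(TPM + 1) transformation, on the 18232 genes that averaged 1 or more spike-in normalized TPM, with Benjamini-Hochberg adjustment in each comparison, and "rose" and "fell" below mean an adjusted p under 0.05. Of the 98 genes 93 passed this filter. Cox8b, Cox6a2, Ndufa11b, Ndufs6b and a second entry named Atp5o did not, and a gene could pass it through the groups in which it was high. Over all genes tested the log2 fold change had a median of -0.33, -0.33 and -0.83 in WT at 24, 72 and 144 h and -0.49 and -0.12 in DKO at 24 and 72 h in spike-in normalized TPM. On plain TPM it was -0.01, 0.04 and 0.05 in WT and 0.01 and 0.14 in DKO. The pseudocount understates changes of low genes, so the spike-in normalized medians can lie nearer 0 than the shift of high genes. The factor that rescaled a library was 2.11 in both WT 0 h libraries, and 1.07 and 1 in those of 144 h. Most members lie far above the filter, so their plain changes should be read beside these medians.

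In WT cells at 24 h of mTORi, 38 of the 93 genes fell in spike-in normalized TPM, against 8.73% of all genes tested, and 0 rose. The median log2 fold change of the 93 genes was -0.75. On plain TPM 47 fell and 4 rose, where 14.1% of all genes fell and 15.8% rose, and the median was -0.38. Both 24 h libraries lay below both 0 h libraries in plain TPM for 73.1% of the 93 genes and for 31.6% of all genes. The summed TPM of primitive endoderm markers was 100.4 to 182.1 in these 24 h libraries and 12.57 to 42.38 at 0 h. Trophectoderm markers summed to 24.49 to 73.86 TPM and 16.87 to 18.95 TPM, and neural markers to 32.14 to 34.99 TPM and 83.65 to 93.83 TPM, in the same order. ES cell markers summed to 2874 to 3057 TPM (2819 to 2846 at 0 h), fibroblast markers to 1.278 to 2.834 (5.713 to 8.231) and muscle markers to 1.998 to 2.753 (3.164 to 3.194), and the part of these markers in the counts was not tested. The spike-in normalized count depended on single libraries, with 6 genes falling without WT 0 h replicate 1 or without replicate 2, 5 without WT 24 h replicate 1 and 19 without WT 24 h replicate 2. On plain TPM the counts were 28, 34, 35 and 22 in the same order. With replicates blocked within the genotype, 61 fell in spike-in normalized TPM, where 25.7% of all genes fell and 4.48% rose. Cox6b2 was then the 1 that rose (limma, log2 fold change 0.72, Benjamini-Hochberg adjusted p = 0.0121).

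At 72 h 23 of the 93 genes fell in spike-in normalized TPM (7.6% of all genes) and 0 rose, with a median of -0.77. On plain TPM 35 fell and 3 rose, against 11.4 and 12.6% of all genes, with a median of -0.35. The replicate block within the genotype gave 69 falls and 1 rise in spike-in normalized TPM, where 25.4% of all genes fell and 2.85% rose. The count of 23 was 5 without WT 0 h replicate 1, 4 without WT 0 h replicate 2, 9 without WT 72 h replicate 1 and 0 without WT 72 h replicate 2. On plain TPM the same omissions gave 24, 20, 29 and 14 falls. In the 72 h libraries ES cell markers summed to 2966 to 3265 TPM, primitive endoderm markers to 13.6 to 38.59, trophectoderm markers to 13.31 to 14, neural markers to 54.15 to 69.28, fibroblast markers to 3.017 to 4.724 and muscle markers to 1.347 to 1.471. Those of ES cells were thus above their 0 h range, those of primitive endoderm within it and the others below it, and their part in the counts was not tested.

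At 144 h 88 of the 93 genes fell in spike-in normalized TPM, in a comparison in which 50.5% of all genes did, and the median was -1.25 against -0.83 for all genes. The other 5 genes were Cox7a2l, Ndufa7, Atp5s, Cox6b2 and Ndufa4l2. On plain TPM 33 fell and 3 rose, against 11.7 and 15.6% of all genes, with a median of -0.23. Omitting WT 0 h replicate 1, WT 0 h replicate 2, WT 144 h replicate 1 or WT 144 h replicate 2 left 18, 14, 17 and 11 falls on plain TPM, while the spike-in normalized count stayed between 67 and 82. At 144 h ES cell markers summed to 3397 to 3493 TPM, above the 0 h range, and primitive endoderm markers to 12.86 to 13.8, within it. Trophectoderm (11.18 to 11.49), neural (60.61 to 63.08), fibroblast (4.532 to 5.647) and muscle markers (1.281 to 1.558) lay below theirs, and the part of these markers was not tested either.

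**Figure D2:**
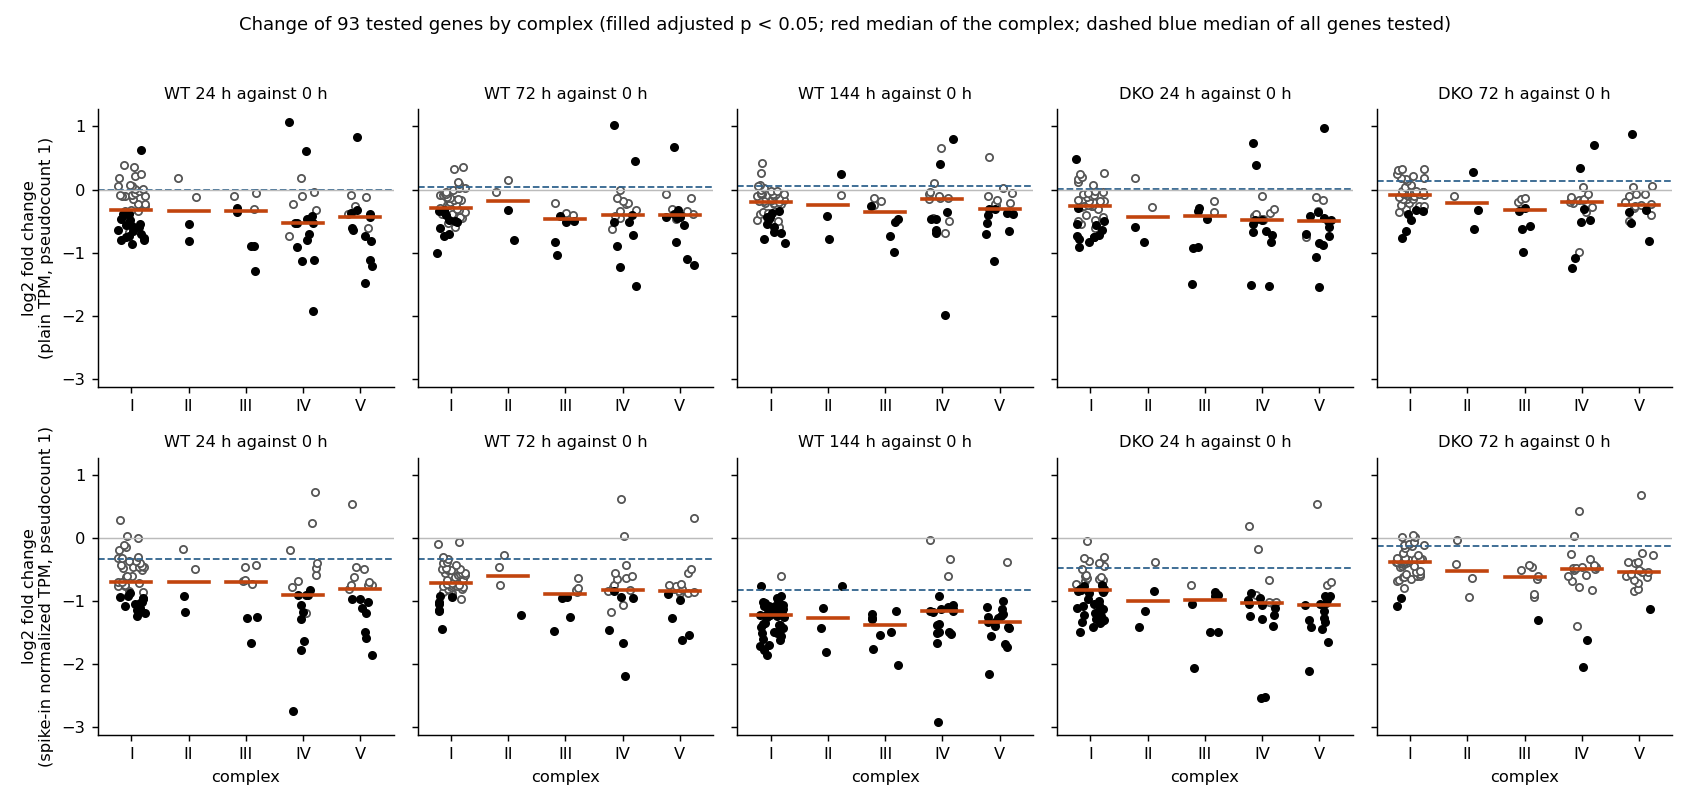
Log2 fold change against 0 h of the same genotype (vertical axes, pseudocount 1) of the 93 tested genes by complex, on plain TPM in the upper row and spike-in normalized TPM in the lower row. Filled points passed an adjusted p of 0.05, red bars are the median of a complex and dashed lines the median of all genes tested, and most members lie below the dashed line in every panel.

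Complex I is the entry point for electrons from NADH, and its core subunits bind the flavin and the iron-sulphur clusters. Among the core genes described here, Ndufs8, an iron-sulphur subunit, was the one that changed on plain TPM in WT at 24 h. Its TPM were 64.9 and 62.3 at 0 h, 35.9 and 36.3 at 24 h, 35.6 and 27.4 at 72 h, then 38.0 and 32.4 at 144 h, so that no mTORi library reached the 0 h level. The log2 fold change at 24 h was -1.18 ± 0.28 (SE) in spike-in normalized TPM (limma with Benjamini-Hochberg, adjusted p = 0.0121) and -0.80 ± 0.17 on plain TPM (adjusted p = 0.00536). The core genes Ndufs1, Ndufs3, Ndufs7, Ndufv1 and Ndufv2 had plain values of 0.05, 0.07, -0.10, 0.06 and -0.23 at 24 h, and none of these 5 passed the test there.

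At 144 h these 5 genes and Ndufs8 fell in spike-in normalized TPM, from -0.99 for Ndufs3 to -1.86 for Ndufs8. The values of the others were -1.18 (Ndufs1), -1.18 (Ndufs7), -1.04 (Ndufv1) and -1.16 (Ndufv2). On plain TPM Ndufs8 passed at 144 h (-0.84 ± 0.17), and the other 5, which did not, lay between -0.16 and 0.03.

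Over all 45 complex I genes tested, 18 fell and 1 rose on plain TPM at 24 h in WT, against 14.1 and 15.8% of all genes, and 15 fell in spike-in normalized TPM, against 8.73%. Among accessory subunits, Ndufb2 of the membrane arm went from 56.3 and 65.8 TPM to 37.7 and 28.8 TPM at 24 h, with a log2 fold change of -1.24 ± 0.34 in spike-in normalized TPM and -0.87 ± 0.19 on plain TPM. It was at 52.8 and 40.6 TPM at 144 h, where the plain change of -0.39 did not pass. Of the assembly factors, Ndufaf5, which modifies the core subunit Ndufs7, was at 16.4 and 16.8 TPM at 0 h, 8.46 and 9.73 TPM at 24 h and 8.76 and 9.64 TPM at 144 h. It fell by 0.80 on the plain log2 scale at 24 h and by 0.79 at 144 h.

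Ndufaf3, another assembly factor, was the complex I gene that rose on plain TPM. Its TPM were 13.4 and 12.3 at 0 h, 21.2 and 19.2 at 24 h, then 13.3 and 13.3 at 144 h, so the rise at 24 h (0.62 ± 0.11) was no longer seen at 144 h (0.05). The 24 h value in spike-in normalized TPM was 0.28 and did not pass. Ndufaf3 overlaps Impdh2 on the opposite strand, a gene at 357 to 439.4 TPM in WT at 0 and 24 h, and the parameters listed for StringTie in the study's methods hold no strand option, so unspliced reads of such a pair cannot be told apart. Over the 93 genes, 25 overlap another tested gene, 5 of them on the same strand. Ndufs1 is one of the 25 and overlaps Eef1b2 on the opposite strand.

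Complex II, succinate dehydrogenase, has 4 subunits. Sdha, the flavoprotein that oxidizes succinate, had 121 and 123 TPM at 0 h, 137 and 142 TPM at 24 h and 149 and 143 TPM at 144 h. Sdhb, the iron-sulphur subunit, had 77.3 and 76.4, 74.95 and 66.4, and 74.7 and 69.9 TPM at the same times. The membrane anchors were lower at both times, with Sdhc at 42.2 and 40.5, 29.3 and 26.6, and 31.8 and 29.9 TPM.

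Sdhd, the other anchor, was at 103 and 125 TPM at 0 h, 59.5 and 69.2 TPM at 24 h and 64.5 and 65.6 TPM at 144 h. Both anchors fell on plain TPM at 24 h (Sdhc -0.55 ± 0.09, Sdhd -0.81 ± 0.13) and at 144 h (-0.41 and -0.79), while Sdha rose at 144 h (0.25 ± 0.07, limma with Benjamini-Hochberg, adjusted p = 0.0286) and Sdhb did not pass. All 4 genes fell at 144 h in spike-in normalized TPM, from -0.77 for Sdha and -1.11 for Sdhb to -1.43 for Sdhc and -1.81 for Sdhd. The rise of Sdha is therefore one relative to other transcripts, and its direction was the opposite per cell.

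Complex III, as taken by symbol, had the largest proportional loss. The symbols leave out Cyc1, its cytochrome c1 subunit, which is counted below with the electron carriers. Uqcrq, a small subunit of the membrane part, was at 125 and 120 TPM at 0 h, 60.6 and 40.5 TPM at 24 h, 65.6 and 52.8 TPM at 72 h and 63.6 and 58.6 TPM at 144 h. It fell at each time on both scales, by -1.66 ± 0.26, -1.47 ± 0.26 and -2.01 ± 0.26 in spike-in normalized TPM and -1.28 ± 0.21, -1.04 ± 0.21 and -0.99 ± 0.21 on plain TPM. Omitting WT 72 h replicate 2 ended the 72 h call in spike-in normalized TPM (log2 fold change -1.24).

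Uqcr10, another small subunit, went from 273 and 266 TPM to 152 and 138 TPM at 24 h and 174 and 151 TPM at 144 h (plain log2 fold change -0.89 ± 0.17 and -0.73 ± 0.17). Uqcrc1, a large subunit that faces the matrix, was at 229 and 222 TPM at 0 h and 208 and 214 TPM at 24 h, where it did not pass (-0.10), and at 166 and 162 TPM at 144 h, where it fell (-0.46 ± 0.09). Uqcrc2, the other large one, had plain values of -0.05 and -0.14 and did not pass at either time. Uqcrfs1, the Rieske iron-sulphur protein that hands electrons on towards cytochrome c, fell by 0.30 at 24 h and 0.26 at 144 h on the plain log2 scale. The other small subunits had plain values at 24 and 144 h of -0.36 and -0.51 (Uqcrh), -0.89 and -0.25 (Uqcr11) and -0.31 and -0.18 (Uqcrb), and Uqcrh fell at both times, Uqcr11 at 24 h and Uqcrb at neither.

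Of the 8 complex III genes, 5 fell on plain TPM at 24 h and 5 at 144 h, against 14.1 and 11.7% of all genes, and none rose. The spike-in normalized TPM of 3 fell at 24 h and of all 8 at 144 h, where 8.73 and 50.5% of all genes fell.

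**Figure D3:**
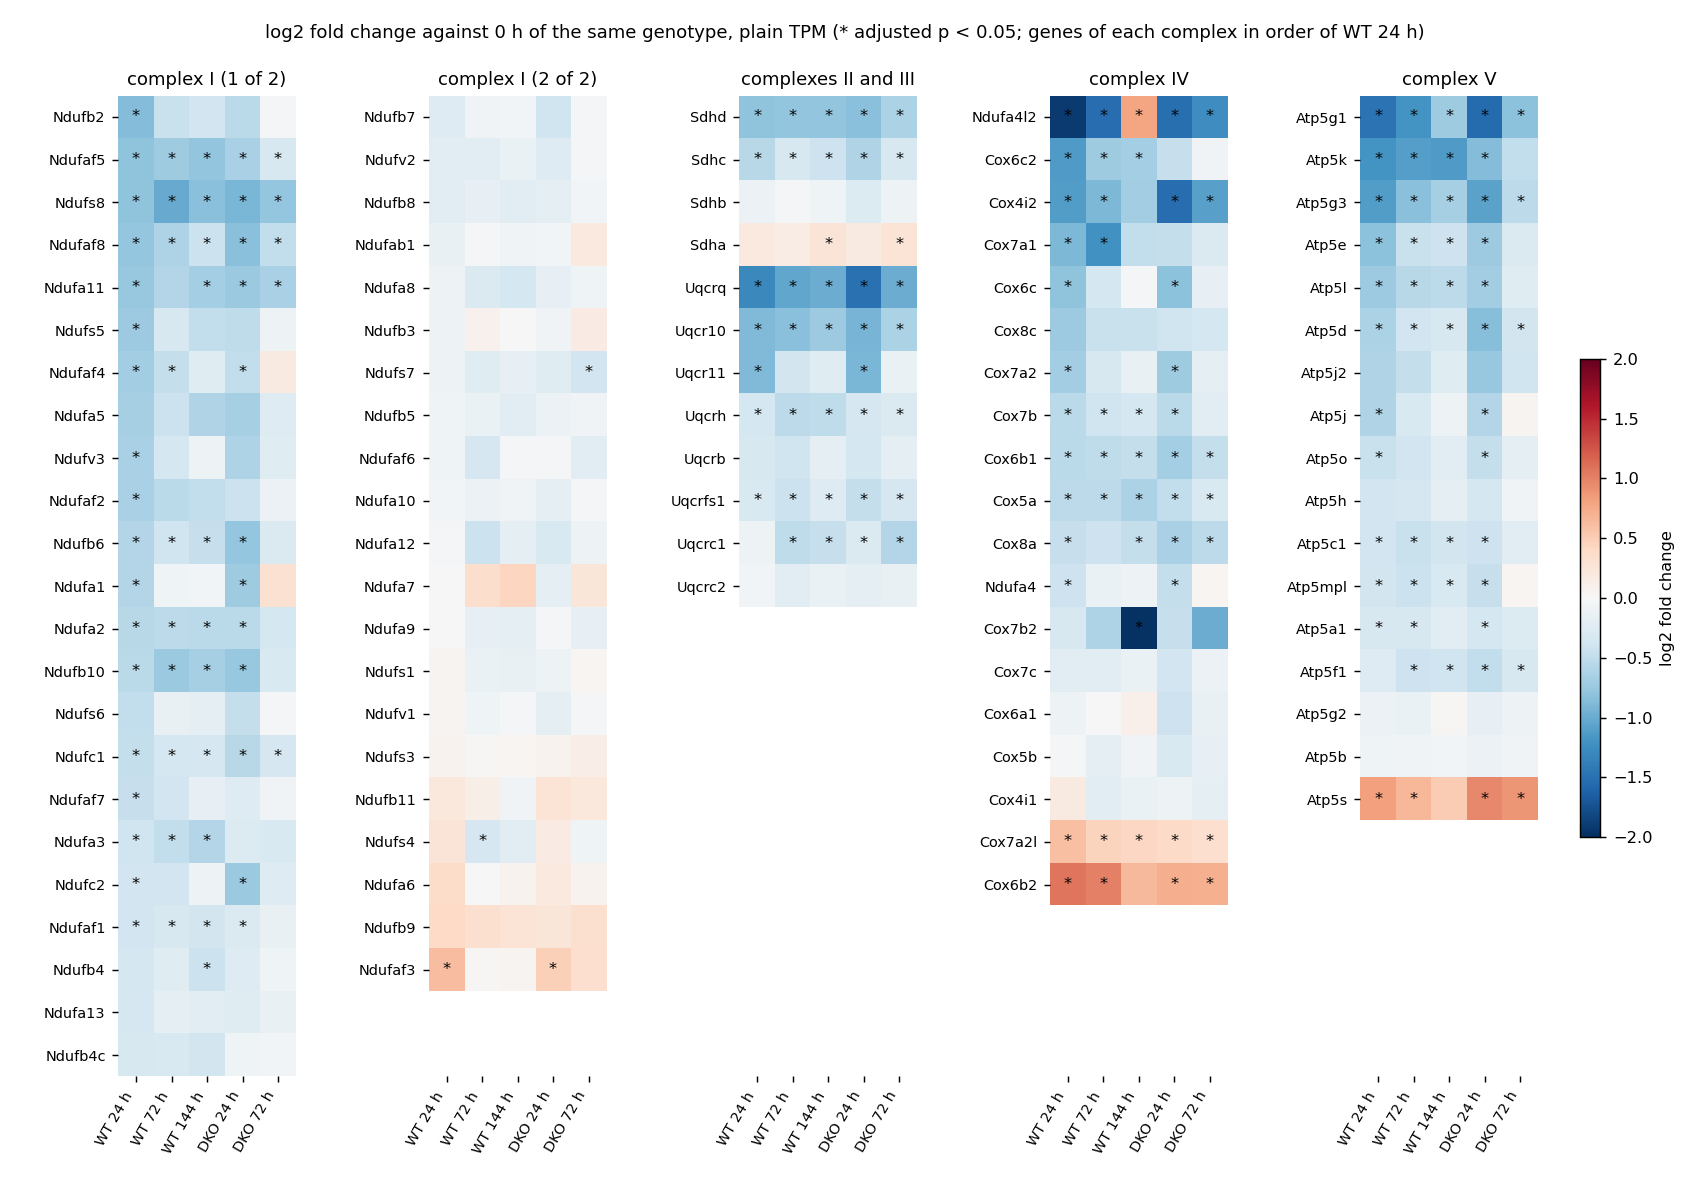
Log2 fold change on plain TPM against 0 h of the same genotype for tested genes of each complex (rows, ordered within a complex by WT at 24 h) in the 5 comparisons (columns), with an asterisk where limma's adjusted p was under 0.05. The colour scale ends at -2 and 2, and the small subunits Uqcrq and Uqcr10, the anchors Sdhc and Sdhd and Atp5g1 and Atp5g3 are blue in all columns while Cox7a2l, Cox6b2 and Atp5s are red.

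Complex IV, cytochrome c oxidase, has a catalytic core made in mitochondria, and its nuclear genes encode the surrounding subunits, several with a common and a restricted isoform. Cox4i1, the common isoform of a large regulatory subunit, had 609 and 559 TPM at 0 h and 630 and 698 TPM at 24 h, with plain values of 0.19 at 24 h and -0.14 at 144 h that did not pass. Cox5b was likewise near its 0 h level on plain TPM (-0.03 and -0.08). Cox5a, which binds next to it, was at 323 and 341 TPM at 0 h, 247 and 214 TPM at 24 h and 220 and 205 TPM at 144 h, and fell at both times (-0.53 ± 0.09 and -0.64 ± 0.09).

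The common isoforms of the small subunits differed among themselves. Cox7a2 (226 and 215 TPM at 0 h, 155 and 118 TPM at 24 h) fell at 24 h by 0.70 on the plain log2 scale and was at 202 and 195 TPM at 144 h, where it did not pass (-0.15). Cox6b1 and Cox8a fell at both times (-0.53 and -0.47 for Cox6b1, -0.46 and -0.47 for Cox8a). Cox6a1 had plain values of -0.11 and 0.10 and did not pass. Each of these common isoforms fell in spike-in normalized TPM at 144 h, from -0.92 for Cox6a1 to -1.50 for Cox6b1 and Cox8a.

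Among the restricted isoforms, Cox6b2, known from testis, was higher under mTORi. It had 25.8 and 22.1 TPM at 0 h, 60.4 and 43.5 TPM at 24 h, 46.4 and 52.4 TPM at 72 h and 36.4 and 40.1 TPM at 144 h, all above both 0 h libraries. It rose on plain TPM at 24 h (1.07 ± 0.22) and 72 h (1.01 ± 0.22) and missed the threshold at 144 h (0.66 ± 0.22, limma with Benjamini-Hochberg, adjusted p = 0.0514). Its share of the summed TPM of the Cox6b pair was 7.44% at 0 h and 20.0% ± 1.89 (SD, n = 2) at 24 h. Its values in spike-in normalized TPM were 0.72, 0.61 and -0.34 at 24, 72 and 144 h and none passed without the block. The summed TPM of 4 sperm cell markers was at most 0.2362 in any library.

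Cox7a2l, which joins complexes III and IV into supercomplexes, was at 88.3 and 97.0 TPM at 0 h, 138 and 145 TPM at 24 h, 130 and 124 TPM at 72 h and 122 and 125 TPM at 144 h. It rose on plain TPM at each time (0.61 ± 0.08, 0.45 ± 0.08 and 0.41 ± 0.08). Its spike-in normalized values of 0.24, 0.03 and -0.61 did not pass, so its direction at 144 h differed between the scales.

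Other restricted isoforms had lower levels. Cox7a1, the muscle isoform of Cox7a2, was at 20.4 and 17.8 TPM at 0 h, 9.16 and 10.3 TPM at 24 h, 7.88 and 7.40 TPM at 72 h and 17.1 and 10.2 TPM at 144 h. It fell on both scales at 24 h (-1.29 in spike-in normalized and -0.90 on plain TPM) and 72 h (-1.67 and -1.22), and at 144 h in spike-in normalized TPM only (-1.49, with a plain value of -0.50). Cox4i2, an isoform of Cox4i1 known from lung and hypoxia, was at 1.66 and 0.856 TPM at 0 h and at 0.0538 TPM or listed at 0 at 24 h, and fell at 24 h and 72 h on both scales. Omitting WT 0 h replicate 1 ended its 24 h call in spike-in normalized TPM.

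Cox7b2, the restricted partner of Cox7b, was at 4.15 and 7.42 TPM at 0 h, 2.43 and 7.08 TPM at 24 h and 0.497 and 0.861 TPM at 144 h, and fell at 144 h (-2.92 ± 0.48 in spike-in normalized and -1.98 ± 0.40 on plain TPM). The libraries overlapped at 24 h. Cox8c lay at 1.32 and 1.22 TPM at 0 h and passed only in spike-in normalized TPM at 144 h (-1.13). Cox6a2 reached at most 0.152 TPM, and Cox8b was listed at 0 in all 14 libraries.

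Ndufa4l2 went down and came back. This gene is a hypoxia-inducible relative of the complex IV subunit Ndufa4. Ndufa4l2 had 3.25 and 2.69 TPM at 0 h, 0.0536 and 0.0448 TPM at 24 h, 0.542 and 0.224 TPM at 72 h and 5.54 and 6.21 TPM at 144 h. The 24 h and 72 h libraries lay below both 0 h libraries and the 144 h libraries above them. It fell at 24 h (-2.75 ± 0.33 in spike-in normalized, -1.92 ± 0.18 on plain TPM) and 72 h (-2.19 and -1.53). At 144 h it rose on plain TPM (0.79 ± 0.18, limma with Benjamini-Hochberg, adjusted p = 0.00961), with a spike-in normalized value of -0.03.

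Shmt2, the mitochondrial serine hydroxymethyltransferase, overlaps Ndufa4l2 on the opposite strand at 173.2 to 177.8 TPM in WT at 0 h, 84.5 to 85.88 TPM at 24 h and 117 to 128.6 TPM at 144 h. It had plain changes of -1.03 at 24 h and -0.51 at 144 h, so the pair of genes moved the same way at 24 h and in opposite directions at 144 h. The part of reads from Shmt2 in the Ndufa4l2 values was not tested.

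**Figure D4:**
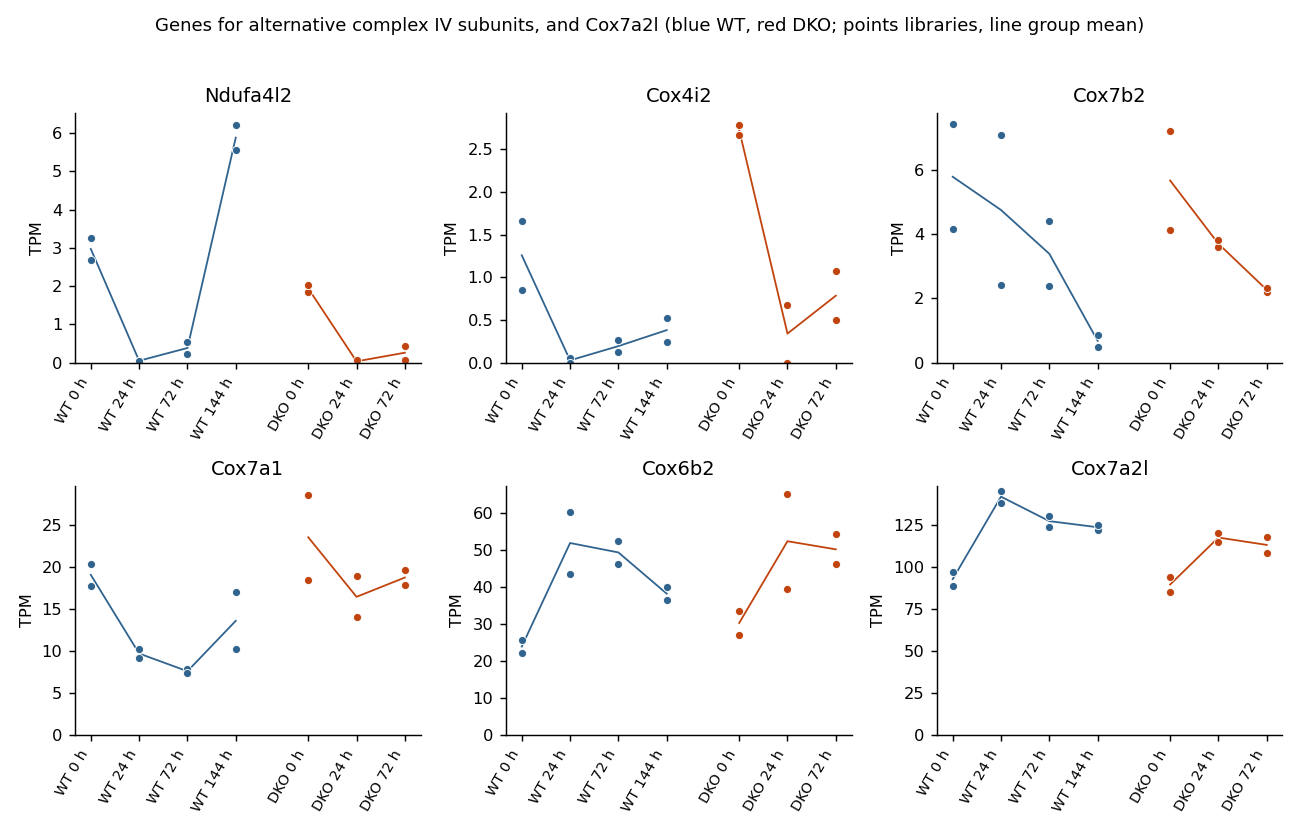
Plain TPM (vertical axes from 0) of 5 genes for restricted isoforms of complex IV subunits and of Cox7a2l, with a point for each library and a line through the mean of the 2 replicates (WT blue, DKO red). Ndufa4l2 lies near 0 at 24 h in both genotypes and at 5.54 and 6.21 TPM in WT at 144 h, and Cox6b2 and Cox7a2l lie above their 0 h libraries in every mTORi group.

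Complex V, the ATP synthase, has a catalytic head outside the membrane and a rotating ring of identical c subunits within it. Atp5b, for the catalytic beta subunit, had the highest level of all 98 genes at 1265 and 1360 TPM at 0 h, 1258 and 1209 TPM at 24 h and 1299 and 1219 TPM at 144 h, and did not pass on plain TPM (-0.09 and -0.06). Atp5a1, for the alpha subunit, was at 645 and 714 TPM, 541 and 541 TPM and 602 and 571 TPM, and fell by 0.33 on the plain log2 scale at 24 h, with -0.21 at 144 h that did not pass. Atp5c1, for the gamma subunit that turns within the head, fell at both times (-0.38 and -0.36), as did Atp5d (-0.64 and -0.31) and Atp5e (-0.81 and -0.41), for the delta and epsilon subunits of the same shaft. Atp5b, Atp5a1 and Atp5c1 fell in spike-in normalized TPM at 144 h only (-1.09, -1.24 and -1.39).

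Atp5k, for the small subunit e of the membrane part, was at 187 and 146 TPM at 0 h, 77.3 and 65.5 TPM at 24 h and 82.5 and 67.6 TPM at 144 h. It fell on both scales at 24 h (-1.58 ± 0.28 in spike-in normalized, -1.20 ± 0.22 on plain TPM) and at 144 h (-2.16 and -1.14).

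The c subunit is encoded by 3 genes whose mature proteins are the same. Atp5g1 had 298 and 255 TPM at 0 h, 110 and 88.6 TPM at 24 h, 143 and 100 TPM at 72 h and 154 and 184 TPM at 144 h. Atp5g3 had 401 and 449 TPM, 198 and 192 TPM, 233 and 241 TPM and 272 and 265 TPM at the same times. Both lay below their 0 h libraries in every WT mTORi library.

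Atp5g2 instead had 200 and 195 TPM at 0 h, 182 and 181 TPM at 24 h, 187 and 173 TPM at 72 h and 209 and 193 TPM at 144 h, with groups that overlapped at 144 h. Atp5g1 fell at 24, 72 and 144 h by -1.85 ± 0.27, -1.62 ± 0.27 and -1.74 ± 0.27 in spike-in normalized TPM and by -1.47 ± 0.22, -1.20 ± 0.22 and -0.71 ± 0.22 on plain TPM. Atp5g3 fell by -1.49, -1.26 and -1.69 in spike-in normalized TPM and by -1.11 ± 0.09, -0.84 ± 0.09 and -0.66 ± 0.09 on plain TPM. Atp5g2 had plain values of -0.12, -0.14 and 0.02 and did not pass, and in spike-in normalized TPM it had -0.49 and -0.56 and fell at 144 h only (-1.003 ± 0.27). The 72 h calls of Atp5g3 in spike-in normalized TPM were lost without any one of the 4 libraries compared, and that of Atp5g1 without WT 72 h replicate 2 (-1.30).

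Summed over the 3 genes, c subunit transcripts went from 899 TPM at 0 h to 476 ± 19.6 at 24 h, 538 ± 34.9 at 72 h and 638 ± 5.82 at 144 h (mean ± SD, n = 2). Atp5g2 made up 21.7 and 22.3% of this sum at 0 h, 37.1 and 39.2% at 24 h, 33.2 and 33.6% at 72 h, then 30.1 and 32.9% at 144 h, so no mTORi library reached down to the 0 h share. In DKO the sum was 1063 ± 57.8 TPM at 0 h, 543 ± 15.6 at 24 h, then 739 ± 11.3 at 72 h, and the share of Atp5g2 was 18.3, 31.7 and 24.5%.

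**Figure D5:**
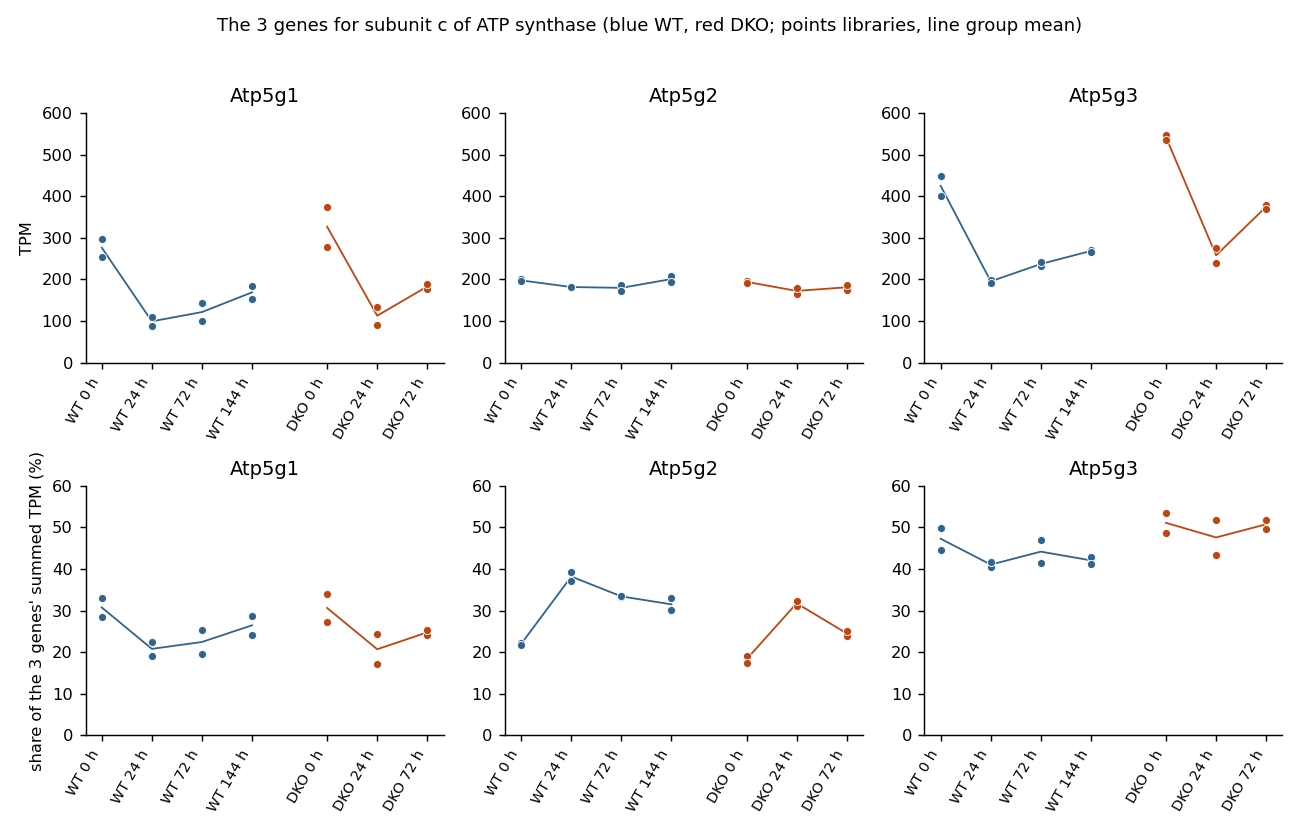
Plain TPM (upper row) and share of the summed TPM of the 3 c subunit genes (%, lower row) for Atp5g1, Atp5g2 and Atp5g3, with a point for each library and a line through the mean of the 2 replicates (WT blue, DKO red). Atp5g1 and Atp5g3 drop at 24 h in both genotypes while Atp5g2 stays between 166 and 209 TPM in all 14 libraries and its share goes from 22.0 to 38.2% in WT.

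The promoters of the 3 c subunit genes are printed because these genes encode the same mature protein and differed in their changes. Each is the 300 bases from 250 before to 50 after the RefSeq transcription start, in mouse build GRCm38.p6, 5′ to 3′ on the strand of the gene. Capitals mark a match, on either strand, to any of the motifs searched. These were GCGCATGCG for the factor NRF1, of which GCATGCG is the core and was also searched alone. For ETS factors such as GABP the letters were CCGGAAG. The motif of YY1 was AAGATGGCG, again with its core searched alone, here written AAGATGG. Sp factors were represented by GGGCGG and the E-box by CACGTG. Motif and core overlap, so a window with the motif also holds its core. The windows are chr11:96075582-96075881 for Atp5g1, chr15:102670998-102671297 for Atp5g2 and chr2:73911277-73911576 for Atp5g3, each on the minus strand.
Atp5g1: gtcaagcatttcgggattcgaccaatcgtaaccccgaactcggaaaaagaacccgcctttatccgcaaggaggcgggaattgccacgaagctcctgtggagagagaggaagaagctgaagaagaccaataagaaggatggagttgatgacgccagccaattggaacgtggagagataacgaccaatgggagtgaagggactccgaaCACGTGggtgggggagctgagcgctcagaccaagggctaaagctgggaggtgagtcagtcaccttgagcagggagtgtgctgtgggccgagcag
Atp5g2: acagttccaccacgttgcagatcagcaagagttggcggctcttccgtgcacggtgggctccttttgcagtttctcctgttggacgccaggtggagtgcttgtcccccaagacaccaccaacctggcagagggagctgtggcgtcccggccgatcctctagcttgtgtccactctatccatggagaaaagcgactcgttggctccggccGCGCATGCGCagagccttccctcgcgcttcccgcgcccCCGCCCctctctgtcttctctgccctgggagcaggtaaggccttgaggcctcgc
Atp5g3: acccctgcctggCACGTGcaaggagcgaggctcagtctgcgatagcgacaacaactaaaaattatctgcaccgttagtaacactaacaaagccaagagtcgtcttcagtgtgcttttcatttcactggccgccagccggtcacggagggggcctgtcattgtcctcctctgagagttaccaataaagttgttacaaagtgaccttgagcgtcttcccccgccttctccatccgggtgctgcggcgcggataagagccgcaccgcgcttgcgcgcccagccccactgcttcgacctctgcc

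In the Atp5g1 window the one match was an E-box that starts at position -44 from the transcription start, and in the Atp5g3 window an E-box at -238. The Atp5g2 window instead held the NRF1 motif at -42, read on both strands, and an Sp motif at -4 on the opposite strand. A match is a run of letters and not an occupied site. Of the 98 genes 74 matched a RefSeq promoter, with 79 windows, since some have more than 1 start. The NRF1 motif lay in 12.7% of the 79 windows and in 1.75% of 32851 windows of all genes, its core in 16.5 and 3.58%, and the YY1 motif in 10.1 and 1.4%, with its core in 13.9 and 6.34%. The ETS motif was in 22.8 and 8.86%, the Sp motif in 43 and 35.7%, and the E-box in 7.59 and 7.15%.

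Windows of 10 genes held the NRF1 motif: Atp5g2, Atp5k, Atp5l, Cox6a1, Ndufa11, Ndufa8, Ndufaf4, Ndufaf5, Uqcr11 and Uqcrc1. Their plain log2 fold changes at 24 h in WT included -0.10 for Uqcrc1 and -1.20 for Atp5k, with a median plain log2 fold change of -0.72 against -0.38 for the 63 tested genes without the motif. The same medians were -0.56 and -0.35 for 18 genes with and 55 without the ETS motif, -0.49 and -0.38 for 8 and 65 with and without the YY1 motif, -0.33 and -0.45 for 33 and 40 with and without the Sp motif, and -0.73 and -0.38 for 5 and 68 with and without the E-box. The 5 genes with an E-box were Atp5g1, Atp5g3, Atp5l, Ndufa7 and Ndufv1. At 144 h the medians with and without were -0.406 and -0.213 for NRF1, -0.421 and -0.213 for ETS and -0.204 and -0.242 for YY1. They were -0.167 and -0.288 for Sp and -0.524 and -0.231 for the E-box. The NRF1 core had -0.602 and -0.384 at 24 h, then -0.247 and -0.23. The YY1 core had -0.392 and -0.384, then -0.23 and -0.245, and -0.377 and -0.447 in DKO at 24 h. The gaps thus differed between times, and these medians are descriptions, as the genes are not replicates.

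Atp5s, the associated factor, was the complex V gene that rose on plain TPM. It had 4.83 and 5.06 TPM at 0 h, 8.78 and 10.4 TPM at 24 h, 7.63 and 9.36 TPM at 72 h and 7.18 and 7.77 TPM at 144 h, with plain values of 0.83 ± 0.19, 0.67 ± 0.19 and 0.51 ± 0.19, the last of which did not pass. In spike-in normalized TPM it had 0.54, 0.32 and -0.39 and did not pass. Over the 17 complex V genes tested, 11 fell and 1 rose on plain TPM at 24 h, against 14.1 and 15.8% of all genes, and 9 fell and 0 rose at 144 h, against 11.7 and 15.6%.

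Some genes were lowest at 24 h, so the later times were also compared with 24 h, a comparison added after the values were seen. In WT, 9 of the 93 genes were higher and 4 lower at 144 h than at 24 h on plain TPM, against 12.6 and 10.1% of all genes. The higher genes had log2 fold changes of 0.32 to 0.77, among them Atp5g1 (0.76 ± 0.22), Atp5g3 (0.46 ± 0.09), Cox7a2 (0.55 ± 0.16) and Ndufaf4 (0.46 ± 0.14), apart from Ndufa4l2 at 2.71 ± 0.18. The lower genes were Cox7b2 (-1.66), Ndufaf3 (-0.57), Ndufs4 (-0.48) and Uqcrc1 (-0.36). In spike-in normalized TPM 17 genes were lower and 1, Ndufa4l2, was higher, where 14.7% of all genes were lower and 0.9% higher. Primitive endoderm markers summed to 100.4 to 182.1 TPM at 24 h and 12.86 to 13.8 TPM at 144 h. In the same order neural markers had 32.14 to 34.99 and 60.61 to 63.08 TPM, and ES cell markers 2874 to 3057 and 3397 to 3493 TPM. Trophectoderm and muscle sums were lower at 144 h and fibroblast sums higher, and the part of these markers was not tested. The plain counts were 14 higher and 8 lower with the replicate block, against 16.7 and 13.1% of all genes. They were 6 and 2 without WT 24 h replicate 1, 4 and 2 without WT 24 h replicate 2, 3 and 1 without WT 144 h replicate 1, and 4 and 2 without WT 144 h replicate 2.

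In DKO cells the share of all TPM was also lower at 24 h, and at 72 h it lay closer to its 0 h level than at 24 h. The 98 genes held 1.55 and 1.69% of all TPM at 0 h, 1.12 and 1.32% at 24 h, then 1.36 and 1.46% at 72 h, a mean 24.6 and 12.7% lower than at 0 h. Complexes III (31.9 and 23.8% lower at 24 and 72 h) and V (28.2 and 14.9%) again differed most, beside 25.4 and 12.8% for complex IV, 17.4 and 8.46% for complex II and 15.7 and 4.44% for complex I. All mTORi libraries lay below both 0 h libraries in each complex, apart from complex I at 72 h, where the groups overlapped.

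At 24 h of mTORi in DKO, 63 of the 93 genes fell in spike-in normalized TPM (18.7% of all genes) and 0 rose, with a median of -0.99 against -0.49 for all genes. On plain TPM 41 fell and 4 rose, against 13.3 and 11.6% of all genes. The summed TPM of primitive endoderm markers was 29.78 and 70.57 in the 24 h libraries (13.33 and 40.46 at 0 h), that of trophectoderm markers 15.39 and 38.13 (11.17 and 21.06 at 0 h) and that of neural markers 28.05 and 29.87 (73.15 and 81.87 at 0 h). ES cell markers stood at 2781 and 2869 (2886 and 3153 at 0 h), fibroblast markers at 2.679 and 7.386 (10.47 and 17.71) and muscle markers at 1.514 and 2.435 (2.866 and 2.917), and the part of all these in the counts was not tested. The genes with the lowest values were Cox4i2 (-2.54), Ndufa4l2 (-2.53) and Atp5g1 (-2.11), and Uqcrq had -2.07. The highest values, none of which passed in spike-in normalized TPM, were those of Atp5s (0.53, plain 0.97), Cox6b2 (0.18, plain 0.73) and Ndufaf3 (-0.05, plain 0.48), and Cox7a2l had -0.18 (plain 0.39). All 4 rose on plain TPM. The count of 63 was 20 without DKO 0 h replicate 1, 32 without DKO 0 h replicate 2, 83 without DKO 24 h replicate 1 and 25 without DKO 24 h replicate 2, and on plain TPM the falls were 39, 26, 25 and 52.

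At 72 h in DKO 6 genes fell in spike-in normalized TPM, against 2.95% of all genes, and 0 rose. They were Ndufa4l2 (-2.05), Cox4i2 (-1.61), Uqcrq (-1.30), Atp5g1 (-1.12), Ndufs8 (-1.08) and Ndufa11 (-0.96), an accessory subunit of complex I. Cox7b2 had the third lowest value (-1.40) and did not pass. On plain TPM 22 fell and 4 rose, against 9.06 and 17.2% of all genes, and the risers were Atp5s (0.88), Cox6b2 (0.71), Cox7a2l (0.33) and Sdha (0.28). With the replicate block within the genotype 26 genes fell in spike-in normalized TPM, where 13.2% of all genes did. Without DKO 0 h replicate 1, DKO 0 h replicate 2, DKO 72 h replicate 1 or DKO 72 h replicate 2 the falls were 1, 1, 5 and 1 in spike-in normalized TPM and 13, 5, 5 and 9 on plain TPM. Neural markers summed to 46.73 and 52.94 TPM in the 72 h libraries, fibroblast markers to 4.891 and 7.398 and muscle markers to 1.82 and 2.039, all below the DKO 0 h libraries. ES cell (3130 and 3139), primitive endoderm (23.49 and 34.18) and trophectoderm markers (11.1 and 13.84) overlapped or lay within their 0 h range, and the part of these sums was not tested.

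Compared with 24 h, a comparison again added after the values were seen, 11 genes were higher and 0 lower in DKO at 72 h on plain TPM, against 4.47 and 1.49% of all genes. Limma gave 27 of the 93 genes an unadjusted p under 0.05 in either direction there, and 24.7% of all genes. With the replicate block 20 were higher and 1 lower, against 9.7 and 3.07% of all genes. Ndufa1, an accessory subunit of complex I, had the largest value (1.03 ± 0.18), and 6 of the 11 genes belong to complex V. Neural markers summed to 28.05 and 29.87 TPM at 24 h and 46.73 and 52.94 TPM at 72 h. ES cell markers had 2781 and 2869 TPM, then 3130 and 3139 TPM. Trophectoderm sums were lower at 72 h, those of primitive endoderm, fibroblast and muscle overlapped, and the part of these markers was not tested. The count of 11 was 3 without DKO 24 h replicate 1, 5 without DKO 24 h replicate 2, 1 without DKO 72 h replicate 1 and 0 without DKO 72 h replicate 2.

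The genotypes were compared at each shared time to describe how these genes differed between the WT and DKO libraries. In spike-in normalized TPM limma called 0 of the 93 genes at 0, 24 or 72 h, where 0.0439, 0.0439 and 0.329% of all genes were called in either direction, and 16, 1 and 69 of the 93 had an unadjusted p under 0.05, against 8.35, 4.14 and 23% of all genes. On plain TPM it called 0 at 0 h and 0 at 24 h, against 0.598 and 1.37% of all genes, with 22 and 12 of the 93 and 13.9 and 14.8% of all genes at an unadjusted p under 0.05. At 72 h 12 genes were higher in DKO and 0 lower on plain TPM, against 4.01% of all genes in either direction, and 42 of the 93 and 21.2% of all genes had an unadjusted p under 0.05. The median of the 93 genes was then 0.28, with 0.11 for all genes. Neural markers summed to 46.73 and 52.94 TPM in these DKO libraries and 54.15 and 69.28 TPM in WT, fibroblast markers to 4.891 and 7.398 TPM and 3.017 and 4.724 TPM, and muscle markers to 1.82 and 2.039 TPM and 1.347 and 1.471 TPM. The part of these markers in the comparison was not tested.

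The 12 genes were Cox7a1 (1.20 ± 0.24), Ndufaf4 (0.67 ± 0.14), Atp5g3 (0.66 ± 0.09), Ndufc2 (0.64), Atp5l (0.50), Atp5c1 (0.47), Ndufaf5 (0.46), Ndufb8 (0.45), Ndufaf1 (0.43), Ndufa10 (0.40), Atp5mpl (0.40) and Ndufs1 (0.37). Cox7a1 was at 7.88 and 7.40 TPM in WT at 72 h and at 19.7 and 17.9 TPM in DKO, and Atp5g3 at 233 and 241 TPM and at 379 and 370 TPM. The highest values in spike-in normalized TPM were likewise those of Cox7a1 (1.63), Ndufaf4 (1.09) and Atp5g3 (1.07), and the lowest those of Ndufa4l2 (-0.13), Cox7b2 (-0.09) and Ndufb5 (0.18). Without WT 72 h replicate 2 limma called 1 gene on plain TPM, and without any other of the 4 libraries 0. After each library's spike-in normalized log2 values were centred on their median, limma called 2 of the 93, against 1.69% of all genes.

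At 0 h the extremes in spike-in normalized TPM were Cox4i2 (1.18), Ndufc2 (0.82) and Ndufb7 (0.71) on the side of DKO and Ndufa4l2 (-0.27), Cox6c2 (-0.12) and Atp5s (-0.02) on the other, and none passed. At 24 h they were Cox8c (0.83), Cox7a1 (0.81) and Ndufb2 (0.63), with Ndufaf3 (-0.31), Ndufb5 (-0.25) and Ndufb10 (-0.25), and again none passed. The difference between the DKO and WT responses was tested with limma as well. It called 0 of the 93 genes at 24 h and at 72 h on either scale, where 0.00548% of all genes were called at 24 h in spike-in normalized TPM and 0% in the other 3 tests. In the 93 genes 0 and 0 in spike-in normalized TPM and 1 and 5 on plain TPM had an unadjusted p under 0.05 at 24 and 72 h, against 1.22 and 0.993% of all genes in spike-in normalized and 3.87 and 3.71% on plain TPM. With an effect on this scale measured in 2 libraries a group, a missing call does not show that the genotypes respond alike: for Atp5g3 the 95% interval of the difference at 72 h on plain TPM ran from 0.03 to 0.58.

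Other genes of the mitochondrion were read from lists chosen by function. Of the 18 symbols for regulators of mitochondrial biogenesis, 16 genes were tested in WT, and Ppargc1a, the best known coactivator, lay near 0 TPM. At 24 h limma called 0 of the 16 in spike-in normalized TPM (4 at an unadjusted p under 0.05, as were 26.7% of all genes), and on plain TPM 3 fell and 1 rose, against 14.1 and 15.8% of all genes. Among those that fell were Tfam (-0.39 ± 0.09), which packages and transcribes mitochondrial DNA, and Ssbp1 (-0.47 ± 0.09), which binds it in single strands. Tfam had 45.6 ± 3.13 TPM at 0 h, 34.6 ± 1.53 TPM at 24 h and 45.1 ± 0.456 TPM at 144 h (mean ± SD, n = 2), with a plain log2 fold change of -0.02 at 144 h that did not pass.

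At 144 h 10 of the 16 regulators fell in spike-in normalized TPM, where 50.5% of all genes did, and their values of -0.90 to -1.09 stand beside a median of -0.83 for all genes. They included the transcription factors Nrf1 (-1.04), Gabpa (-1.09), Gabpb1 (-0.95) and Yy1 (-0.90) and the coactivator Pprc1 (-0.91). The others act on mitochondrial DNA and RNA: Tfam (-1.03), Tfb1m (-0.91), Tfb2m (-1.02), Polrmt (-1.03) and Ssbp1 (-1.08). The median of -0.83 includes low genes, whose changes the pseudocount understates, so these values do not show a fall beyond that of other genes. On plain TPM none of these 10 passed, and Pprc1, Gabpb1, Yy1 and Tfb1m lay above 0 while the rest of the 10 did not. On that scale 4 others rose, where 15.6% of all genes did. They were Twnk (0.72), the mitochondrial helicase, Tefm (0.47), an elongation factor, Esrra (0.46), a nuclear receptor, and Polg (0.39), the mitochondrial DNA polymerase.

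Among 37 tested assembly factors outside the symbols used here, 9 fell and 2 rose on plain TPM at 24 h in WT and 10 fell and 3 rose at 144 h, and 5 and 30 fell in spike-in normalized TPM. Of all genes 14.1% fell and 15.8% rose on plain TPM at 24 h, then 11.7 and 15.6% at 144 h, and 8.73 and 50.5% fell in spike-in normalized TPM. Of 18 genes for electron carriers and coenzyme Q synthesis, 6 fell and 5 rose on plain TPM at 24 h, against the same 14.1 and 15.8% of all genes. They moved in both directions, with cytochrome c (Cycs) at 56.2 ± 4.63 TPM at 0 h and 24.2 ± 1.42 TPM at 24 h (-1.18 ± 0.11) and Coq8a, an atypical kinase of coenzyme Q synthesis, at 3.75 ± 0.135 and 13 ± 0.0784 TPM (1.56 ± 0.10). Coq8a rose in spike-in normalized TPM as well (1.32 ± 0.33), a call that was lost without any one of the 4 libraries compared.

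Of 13 tricarboxylic acid cycle genes, 6 fell and 1 rose on plain TPM at 24 h, against 14.1 and 15.8% of all genes, and all 13 fell in spike-in normalized TPM at 144 h, where 50.5% of all genes did. Mdh2, malate dehydrogenase, was at 351 ± 19.9 TPM at 0 h and 180 ± 11.3 TPM at 24 h (-0.96 ± 0.08), and Cs, citrate synthase, at 153 ± 17.8 and 94.4 ± 1.93 TPM (-0.69 ± 0.08). Of the 13 protein genes of mitochondrial DNA, 4 fell and 0 rose on plain TPM at 24 h and 1 fell at 144 h, where 11.7% of all genes fell. mt-Nd6, a complex I subunit and the one protein gene on the light strand, fell at both times (-1.19 ± 0.14 and -0.62 ± 0.14), mt-Nd1 at 24 h only (-0.84 ± 0.21, then -0.33). mt-Co1 (-0.01 and -0.08) and mt-Atp6 (-0.21 and 0.14) did not pass. In spike-in normalized TPM 4 and 10 of the 13 fell at 24 and 144 h, against 8.73 and 50.5% of all genes.

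The respiratory chain genes are short, with a median annotated transcript of 704 nt over the 91 tested genes with a length, against 2112 nt over the 13219 of all 18232 genes tested with a length. Short transcripts as a whole were slightly lower at 24 h in WT. Between 500 and 1000 nt, 53 members had a median plain log2 fold change of -0.39 and 2177 other genes one of -0.09, and 24 of the 53 members and 22.8% of the others fell. In spike-in normalized TPM 24 of the 53 members and 15.25% of the others fell. The shares of all genes given with the counts above were not matched for length or for expression level. Across the members, length and plain change had a Spearman rho of 0.236 and, with length on a log scale, a Pearson r of 0.084 (n = 91 genes from the same libraries). The part of transcript length in the results was not tested beyond these values.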

How the data were processed

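RNA from 14 libraries in 7 groups of 2 was sequenced, and the authors deposited 1 table of TPM per library. Per the labels and the study's methods, ERCC RNA was added to RNA from a fixed number of sorted cells, ribosomal RNA was depleted, and paired reads were processed with cutadapt 2.4, STAR 2.7.3a and StringTie 2.0 (versions from the submitters' processing notes) against mm10 and a GENCODE annotation. StringTie TPM sum to the same total per library and hold neither read counts nor depth, so no counting error can be given.

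TPM were summed per gene identifier. Spike-in normalized TPM are the deposited TPM times 1 factor per library, taken as the median, over 482 to 539 genes, of the normalized TPM in a supplementary table of the study divided by the TPM deposited for that library, and the factors were not recomputed from ERCC RNA, which has no entry in the tables used here. Values were analysed as log2(value + 1) in limma 3.58.1 (R 4.3.3) with a mean-variance trend, all 7 groups in 1 fit, over 18232 genes with a mean of at least 1, and Benjamini-Hochberg adjustment with a threshold of 0.05. A pseudocount understates changes of low genes. Each time was compared with 0 h of its genotype, DKO with WT at each shared time, and the DKO response with the WT response. Tables were made with Python 3.11.15 and pandas 2.3.3, and figures with matplotlib 3.10.9.

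The members, lists and tests were chosen with earlier results of these data known. Named genes are the core subunits, all of complex II, the isoform genes, the c subunit genes, the 3 highest and 3 lowest in each comparison, members called where 5 or fewer were, and regulators called in WT at 144 h. Ndufs4, Uqcr10, Atp5k, Ndufaf5 and other members outside this rule were named after their values were seen. The study processed the time points of a replicate in parallel, so replicate numbers may pair libraries within a genotype. Deviations from group means correlated at 0.0622 to 0.399 in 6 WT pairs and 0.222 to 0.341 in 3 DKO pairs, and at -0.501 to 0.116 between genotypes. Alternatives were plain and median-centred scaling, other filters, pseudocount and blocks, no trend, and leaving out each library. Values of 1 member are not reported here. Promoters come from RefSeq on GRCm38.p6.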

Additional observations from a re-analysis of the deposited data

Results flagged for a closer look

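Ndufaf4, an assembly factor of complex I, went in opposite directions in the genotypes at 72 h on plain TPM. In WT both 72 h libraries (17.6 and 19.2 TPM) lay below both 0 h libraries (24.3 and 28.1 TPM), and in DKO both 72 h libraries (30.3 and 29.5 TPM) lay above both 0 h libraries (25.05 and 27.49 TPM). The DKO change minus the WT change was 0.66 ± 0.19 (SE) on the log2 scale, and the difference itself did not pass in limma with Benjamini-Hochberg adjustment over all genes (adjusted p = 0.999). In spike-in normalized TPM the changes were -0.91 in WT and -0.12 ± 0.34 in DKO, both below 0 and neither past the threshold, and their difference was 0.79 ± 0.47.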

How the results depend on the processing

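Of 2390 recomputed values of 189 gene changes, 1928 kept their direction and side of the threshold, 264 lost a call, 107 gained one and 91 changed sign, and the causes were not tested. Counts of falling genes in WT at 24, 72 and 144 h and DKO at 24 and 72 h (38, 23, 88, 63 and 6 in spike-in normalized TPM) were 47, 35, 33, 41 and 22 on plain TPM. Median-centring gave 43, 42 and 36 in WT at 72 and 144 h and DKO at 72 h. No filter gave 18, 9 and 3 in WT at 24 and 72 h and DKO at 72 h, and no trend 14 and 3 in the last pair. The replicate block within genotype gave 61, 69 and 26 in WT at 24 and 72 h and DKO at 72 h, and with plain TPM 49, 37 and 31 in WT at 72 and 144 h and DKO at 72 h. Counts of rising genes, 0 throughout, were 4, 3, 3, 4 and 4 on plain TPM, 6, 5, 5, 4 and 6 with the replicate block on plain TPM, 4, 3, 2 and 1 after median-centring (WT 24 and 72 h, DKO 24 and 72 h), 1 without a filter at WT 24 h and 1 with the block in WT at 24 and at 72 h.

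Leaving out 1 library gave 5 to 19, 0 to 9, 67 to 82, 20 to 83 and 1 to 5 falls, and on plain TPM 22 to 35, 14 to 29, 11 to 18, 25 to 52 and 5 to 13 falls and 3 to 4, 1 to 3, 1 to 2, 1 to 5 and 0 to 2 rises. Between genotypes at 72 h the count of 0 in spike-in normalized TPM was 12 on plain TPM (0 to 1 there with a library left out), 2 after median-centring and 1 with a mean of at least 5. Against 24 h on plain TPM, WT at 144 h had 4 lower and 9 higher, 8 and 14 with the block, 1 to 2 and 3 to 6 with a library left out, and 17 and 1 in spike-in normalized TPM instead. DKO at 72 h had 11 higher and 0 lower on plain TPM, 20 and 1 with the block, 0 to 5 and 0 to 1 with a library left out, and 2 and 0 in spike-in normalized TPM instead. The share of TPM was 1.51, 1.28 and 1.49% in WT at 0 and 144 h and DKO at 72 h without genes of mitochondrial DNA, and 1.42% in WT at 0 h for subunits only.

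On plain TPM, with or without the replicate block (not fitted between genotypes), the sign was the opposite for Ndufs1 0.052, Ndufs3 0.072, Ndufv1 0.056, Sdha 0.19 and Cox4i1 0.19 in WT at 24 h, Ndufs3 0.032, Sdha 0.25, Cox6a1 0.10, Ndufaf3 0.052, Atp5g2 0.022, Ndufa4l2 0.79, Cox6b2 0.66, Atp5s 0.51, Cox7a2l 0.41, Pprc1 0.12, Gabpb1 0.060, Yy1 0.11, Tfb1m 0.089, Esrra 0.46, Tefm 0.47, Twnk 0.72, Polg 0.39 and mt-Atp6 0.14 in WT at 144 h, Sdha 0.28 and Ndufaf4 0.18 in DKO at 72 h, Ndufaf3 0.48 and Cox7a2l 0.39 in DKO at 24 h, Ndufb5 -0.23 in DKO against WT at 72 h.

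After median-centring it was the opposite for Sdha 0.085 and Cox4i1 0.081 in WT at 24 h, Sdha 0.066, Ndufa4l2 0.80, Cox6b2 0.49, Atp5s 0.44, Cox7a2l 0.23, Esrra 0.35, Tefm 0.31, Twnk 0.55 and Polg 0.22 in WT at 144 h, Sdha 0.066 in DKO at 72 h, Ndufaf3 0.41 and Cox7a2l 0.28 in DKO at 24 h, Ndufb5 -0.33 in DKO against WT at 72 h. Leaving out 1 library gave values on both sides of 0 for Sdha (-0.39 to 0.024), Cox4i1 (-0.45 to 0.072) and Cox7b2 (-1.51 to 0.15) in WT at 24 h, Sdha (-0.26 to 0.20), Ndufaf3 (-0.25 to 0.35) and Ndufaf4 (-0.41 to 0.17) in DKO at 72 h, Ndufaf3 (-0.33 to 0.23), Atp5s (-0.032 to 1.09) and Cox7a2l (-0.56 to 0.21) in DKO at 24 h, Ndufa4l2 (-0.15 to 0.083) in WT at 144 h, Ndufa4l2 (-0.42 to 0.15), Cox7b2 (-0.39 to 0.22) and Ndufb5 (-0.17 to 0.53) in DKO against WT at 72 h, Atp5s (-0.26 to 0.22) in DKO against WT at 0 h, Cox7a2l (-0.082 to 0.14) in WT at 72 h, Ndufb5 (-0.54 to 0.041) in DKO against WT at 24 h.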
